A study of Mus musculus with 2 samples.

Results

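The Reg family consists of small secreted proteins with a C-type lectin fold that pancreatic acinar cells make, some of them in larger amounts in injury and inflammation. Reg1 and Reg2 are best known in the pancreas and islets, whereas Reg3a, Reg3b and Reg3g are also made by gut epithelium, where Reg3g binds Gram-positive bacteria. In acinar cells the Reg3 genes respond to cytokines that signal through STAT3, and Reg3b was first described as pancreatitis-associated protein. The genes described, Reg1, Reg2, Reg3a, Reg3b, Reg3d and Reg3g, were taken by their symbols, 6 of the 32285 genes in the tables, and each was found.

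Single-cell RNA sequencing with the 10x 3′ kit was carried out on pancreatic tumors of 6-week-old mice, 1 library per genotype, to ask how elevated Mettl3 acts in this model. The EL1 library came from EL1-Luc/EL1-TAg mice of the FVB/N strain, in which the elastase I promoter, active in acinar cells, drives SV40 T antigen and luciferase. The WTg library came from EL1-Luc/EL1-TAg x CAG-Mettl3 mice, which carry the same transgenes and in addition a Mettl3 cDNA driven by CAG, a promoter active in most cell types. The CAG-Mettl3 mice were made in C57BL/6, so the Mettl3 transgene and the strain background cannot be told apart, and neither can be told apart from the library, since each group is 1 library. How many animals went into a library is not given in the sources used here. There is therefore no replicate check on any difference between EL1 and WTg, no p-value is given, and all 95% intervals cover counting error only.

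Barcodes with at least 500 genes, at least 1000 UMIs (unique molecular identifiers, each standing for 1 captured transcript) and at most 20% mitochondrial UMIs were kept. This left 1113 of 1621 barcodes with 37961287 UMIs and a median of 26543 per cell in EL1, and 905 of 1488 with 33007683 UMIs and a median of 34836 in WTg. No kept barcode was shared by the libraries, and 15 were shared among all barcodes. Mettl3, the check on the labels, stood at 15.1 CPM (UMIs of a gene per 1000000 UMIs) in EL1 and at 66.7 CPM in WTg. Both samples are labelled as epithelial cells, and 1017 of the 1113 EL1 cells and 825 of the 905 WTg cells lay outside the immune, endothelial-like and erythroid-like clusters.

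The members are neighbors on chromosome 6. In GRCm38 they lie in the order Reg3b, Reg3d, Reg3a, Reg2, Reg1 and Reg3g over 98.2 kb from 78370657 to 78468872, with Reg3d and Reg3g on the minus strand and the others on the plus strand. Reg1 spans 78422711 to 78428667, Reg2 spans 78395623 to 78408106, Reg3a spans 78380709 to 78383827, Reg3b spans 78370657 to 78373466, Reg3d spans 78375874 to 78378865 and Reg3g spans 78466269 to 78468872. The nearest coding genes outside the cluster were almost silent, with 8 UMIs of Ctnna2 in EL1 and 16 in WTg on one side, and 1 UMI of Gm20594 in EL1 and 0 in WTg on the other. Reg4, the family gene on chromosome 3, had 1 UMI in EL1 and 0 in WTg. No pair of members shared a stretch of 91 transcript bases, the read length tested, and the longest identical run was 35 bases between Reg3b and Reg3g, so a full-length read matching 1 annotated member exactly does not match another.

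Start-site windows of 4 members are given because these genes span the range of levels described in the following paragraphs, from the second or first most abundant transcript to one seen in a few cells. They are the RefSeq windows of GRCm38.p6, 250 bases before to 50 after the start, written along the gene's own strand. Reg1 is chr6:78425733-78426032 on the plus strand, Reg2 is chr6:78404905-78405204 on the plus strand, Reg3b is chr6:78370635-78370934 on the plus strand and Reg3d is chr6:78378816-78379115 on the minus strand. Capitals mark 3 motifs, read on either strand. TATAAA is a TATA box sequence. The E-box sequence searched for was CACCTG. The third, TGGGAA, is the core of the RBPJ type of site, which the acinar PTF1 complex binds together with an E-box.
Reg1: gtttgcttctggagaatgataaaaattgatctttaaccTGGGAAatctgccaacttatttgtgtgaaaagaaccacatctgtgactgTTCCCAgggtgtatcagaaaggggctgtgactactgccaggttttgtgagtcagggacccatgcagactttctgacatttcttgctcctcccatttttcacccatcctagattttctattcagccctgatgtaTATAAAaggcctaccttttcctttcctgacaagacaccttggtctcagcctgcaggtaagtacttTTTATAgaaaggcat
Reg2: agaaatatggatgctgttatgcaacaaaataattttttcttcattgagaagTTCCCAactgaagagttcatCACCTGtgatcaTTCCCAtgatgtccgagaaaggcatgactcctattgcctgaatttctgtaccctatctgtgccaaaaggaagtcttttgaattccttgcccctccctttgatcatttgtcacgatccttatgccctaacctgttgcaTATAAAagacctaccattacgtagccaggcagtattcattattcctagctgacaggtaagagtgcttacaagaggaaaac
Reg3b: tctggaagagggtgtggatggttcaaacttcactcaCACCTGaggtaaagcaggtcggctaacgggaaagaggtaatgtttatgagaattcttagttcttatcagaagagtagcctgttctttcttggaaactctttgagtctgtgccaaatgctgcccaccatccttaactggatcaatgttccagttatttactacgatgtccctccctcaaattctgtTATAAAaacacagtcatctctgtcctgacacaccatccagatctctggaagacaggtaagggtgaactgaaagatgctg
Reg3d: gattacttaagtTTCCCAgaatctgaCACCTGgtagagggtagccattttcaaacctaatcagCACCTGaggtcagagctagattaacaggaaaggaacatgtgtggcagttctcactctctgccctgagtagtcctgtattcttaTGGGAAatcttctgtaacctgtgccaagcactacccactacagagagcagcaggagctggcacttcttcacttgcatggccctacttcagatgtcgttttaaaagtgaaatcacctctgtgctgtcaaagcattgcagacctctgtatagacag
The most abundant member had a TATAAA at position -30 from the start, and so did Reg2, while Reg3b had one at -29 and Reg3g one at -27. The windows of Reg3a and Reg3d held none. TATAAA was thus found in 4 of the 6 windows, beside 13.6% of all 32851 RefSeq windows of this length. CACCTG was found in 4 of the 6, namely Reg2, Reg3a, Reg3b and Reg3d, beside 20.2% of all windows, and Reg3d held it at -224 and at -187. TGGGAA was found in 5 of the 6, the exception being Reg3b, beside 25.6% of all windows. TTCNNNGAA, the pattern of a STAT site, was found in Reg3b at -129 and in Reg3d at -238, beside 8.30% of all windows. A match is a description of letters and was not tested for binding. The Reg1 and Reg2 windows lie inside the GENCODE gene spans given above, because GENCODE lists further start sites upstream. Most of the Reg3b window, from 78370657 on, lies inside its GENCODE span as well.

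Over all kept cells the family was dominated by Reg1, the founding member, whose level was 24193 CPM in EL1 and 35341 CPM in WTg. It was the second most abundant gene of EL1 and the most abundant of WTg, and it made up 94.4% of the Reg UMIs of EL1 and 97.5% of those of WTg. The 6 genes together took 2.56% of all UMIs in EL1 and 3.62% in WTg. UMIs count transcript ends, so levels of genes can be set side by side without a correction for length. After Reg1 the order was Reg3b, Reg3d, Reg3g, Reg3a and Reg2 in EL1, and in WTg Reg2 stood above Reg3a with the rest of the order alike. That place of Reg2 rested on a few cells, since without the 10 highest cells of each gene Reg2 was at 12.5 CPM and Reg3a at 13.5 CPM in WTg. The neighboring levels in this order were separated by more than their counting intervals in each library.

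**Figure D1:**
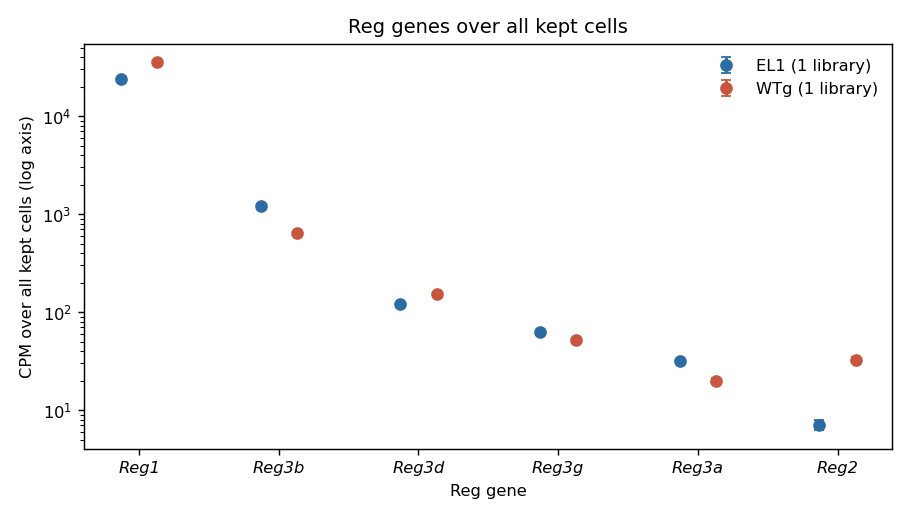
Level of each Reg gene over all kept cells, in CPM on a log axis, with 1 point per library (blue EL1, orange-red WTg) and exact Poisson 95% intervals, mostly smaller than the points. Reg1 lies at 24193 CPM or more in both libraries, and Reg2 is the gene with the widest gap between them, from 7.03 to 32.8 CPM.

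Of the 6 members, Reg2 was the 1 that differed by at least 2-fold between the libraries, and it was higher in WTg. Among the 11052 genes with at least 200 UMIs, 4.22% were at least 2-fold higher in WTg, 2.96% were at least 2-fold higher in EL1 and 7.18% were past 2-fold in either direction. Reg1 was 1.46-fold higher in WTg (log2 ratio 0.55, 95% interval 0.54 to 0.55). Reg3d, a member less studied than its neighbors, stood at 120.5 CPM in EL1 and 153.6 CPM in WTg (log2 ratio 0.35, 0.29 to 0.41). The other Reg3 genes were lower in WTg, for Reg3g except when each cell was counted equally. Reg3b, the pancreatitis-associated protein, was at 1217 CPM in EL1 and 639 CPM in WTg (log2 ratio -0.93, -0.95 to -0.90). Reg3a was at 31.5 and 19.9 CPM (log2 ratio -0.66, -0.80 to -0.52). Reg3g was at 62.6 and 51.6 CPM (log2 ratio -0.28, -0.37 to -0.19), and the log2 ratio was 0.039 with each cell counted equally.

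These sums came from very different numbers of cells. Reg1 was seen in 98.8% of EL1 cells and 99.6% of WTg cells, with a median of 525 and 812 UMIs per cell and up to 8597 and 10262 in a single cell. Reg3d was low but broad, with UMIs in 66.3% and 67.2% of cells and a median of 2 and 3 UMIs. Reg3b, the 112th most abundant gene of EL1 and the 184th of WTg, was missing from 39.1% of EL1 cells and 49.8% of WTg cells, and its UMIs were held by a minority. With a line at 1000 CPM, drawn after the values were seen, 269 EL1 cells (24.2%) lay at or over it and held 90.4% of the Reg3b UMIs, and 138 WTg cells (15.2%) held 85.4%. The median cell had 55.3 CPM of Reg3b in EL1 and 6.77 CPM in WTg, while the 90th percentile was 3371 and 1602 CPM.

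Reg2, the paralog of Reg1, was the most concentrated. Its 267 UMIs in EL1 came from 29 cells, and 2 cells held over 50% of them, whereas its 1083 UMIs in WTg came from 108 cells, and 6 cells held over 50%. The 10 cells with the most Reg2 UMIs held 90.6% of the EL1 total and 62.4% of the WTg total. Without those 10 cells of each library, 25 UMIs were left in EL1 and 407 in WTg, or 0.67 and 12.5 CPM, and the log2 ratio went from 2.22 (2.03 to 2.42) to 4.23 (3.64 to 4.87). The direction of Reg2 was thus the same with and without the few highest cells, and its size depended on them. Those cells were 10 of the 29 with Reg2 in EL1 but 10 of the 108 in WTg. The removal was therefore uneven, and the larger ratio is not a sign of a stronger difference. Reg3a and Reg3g lay between, with 20.8% and 20.7% of cells for Reg3a in EL1 and WTg, and 20.8% and 29.7% for Reg3g. The 10 highest cells held 42.4% and 33.5% of the Reg3a UMIs and 31.4% and 29.0% of the Reg3g UMIs.

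**Figure D2:**
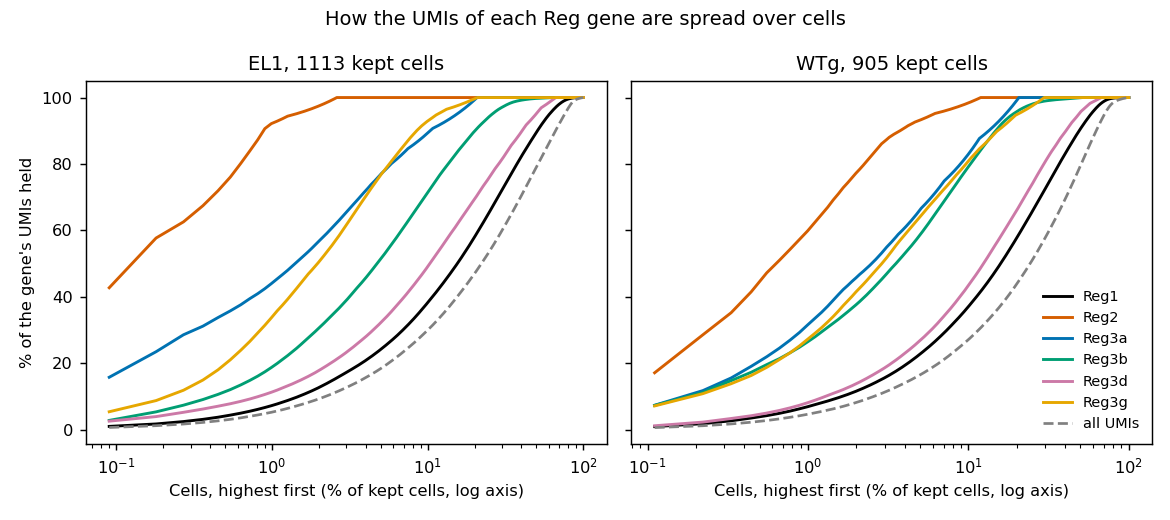
Cumulative share of the UMIs of each Reg gene (percent) against kept cells ranked from the highest (percent of cells, log axis), for EL1 on the left and WTg on the right, with the dashed grey line for all UMIs of a cell. Reg1 and Reg3d run nearest to the dashed line, and Reg2 reaches its total within 2.61% of EL1 cells and 11.9% of WTg cells.

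To compare shares of cells at one depth, each cell with at least 2000 UMIs was thinned to 2000 UMIs, which left out 62 EL1 and 69 WTg cells. Reg1 was then seen in 95.1% of 1051 EL1 cells (exact Clopper-Pearson 95% interval 93.6 to 96.3) and 95.7% of 836 WTg cells (94.1 to 97.0). Reg3b was seen in 36.7% (33.8 to 39.7) and 27.8% (24.7 to 30.9), and Reg3d in 17.9% (15.6 to 20.3) and 23.0% (20.2 to 26.0). Reg3g was seen in 5.04% and 7.30%, Reg3a in 3.33% and 2.87% and Reg2 in 0.476% and 2.87%. The share of Reg3b was larger in EL1 and that of Reg2 larger in WTg, with intervals that did not overlap. The intervals of Reg3d just overlapped. How often such intervals part over all genes was not computed, so these gaps have no background share beside them.

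Free RNA sets the background for such shares, and cells of the neutrophil-, T or NK- and B-like clusters, which should not make Reg proteins, were used to measure it. Their median depth was 3430 UMIs over 22 EL1 cells and 4193 over 27 WTg cells, against 28350 and 36111 in the clusters that are neither immune, endothelial-like nor erythroid-like. After thinning, Reg1 was seen in 10 of 22 of these immune cells in EL1 (45.5%) and in 20 of 25 in WTg (80.0%), and at full depth its level there was 323 and 604 CPM. A Reg1 UMI by itself was therefore read as background. The acinar protease gene Prss2 went with it: there were 1.27 Reg1 UMIs per Prss2 UMI in the EL1 immune cells and 1.28 in the clusters outside the immune, endothelial-like and erythroid-like ones, while in WTg the values were 1.93 and 2.32. In the immune cells the other members were at or near 0. Thinned immune cells of EL1 gave 0 of 22 for each of them, a count that allows up to 13.6% when read as 3 counts (Clopper-Pearson upper bound 15.4%), and those of WTg gave 1 of 25 for Reg3b and 0 of 25 for Reg2, Reg3a, Reg3d and Reg3g, which allows up to 12.0% for each (13.7%). Other cells not known for Reg expression gave another picture in EL1. The 17 erythroid-like barcodes, of a median depth of 1867 UMIs, had 12799 CPM of Reg1 and 1194 CPM of Reg3b, close to the 1241 CPM of Reg3b in the clusters that are neither immune, endothelial-like nor erythroid-like, and Reg3b was seen in 14 of the 17. The 29 endothelial-like cells had 1006 CPM of Reg3b, of which 1 cell gave 48.1%, and after thinning 6 of 27 had a Reg3b UMI (22.2%). Reg3d was at 104 CPM (28.3 to 266, from 4 UMIs) in the EL1 erythroid-like barcodes, beside 125 CPM in the clusters outside these groups. It was seen in 8 of the 29 endothelial-like cells at full depth. The background of Reg3b thus differed between these groups, and a Reg3b or Reg3d UMI by itself was not taken as expression either. In WTg the 13 endothelial-like cells had 11.8 CPM of Reg3b.

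The cells were then grouped without using any Reg gene, and clusters with at least 20 cells of a library are described, 12 in EL1 and 8 in WTg. Most clusters were made up of 1 library, so a cluster and a library often cannot be told apart. Reg1 was high in every tumor cluster. In EL1 it was 29550 CPM in cluster 0 (neuroendocrine-like, led by Resp18, Penk and Tff3), 25575 in cluster 3 (led by S100g, Gm2663 and Try5), 25394 in cluster 6 (led by Thbs1 and Myo5c), 28964 in cluster 7 (led by Fst) and 22291 in cluster 8 (led by histone genes). It was lower in cluster 11, led by the gastric proton pump genes Atp4b and Atp4a, at 11514 CPM. Clusters 8 and 11 had 7 mitotic markers raised, as had cluster 10 of WTg. They were not named mitotic because none of these markers was among their top 10 genes. In WTg Reg1 was 44960 CPM in the acinar-like cluster 1 (led by Prss1 and Sycn), 39691 in the acinar-like cluster 4 (led by Ctrl and Spp1), 30049 in the neuroendocrine-like cluster 2 (led by Serpina1 genes and Pcsk2) and 26175 in the mitotic cluster 10. The lowest values were those of the macrophage-like cluster 12, 510 CPM in EL1 and 194 CPM in WTg, with 1.09 and 1.90 Reg1 UMIs per Prss2 UMI. The highest cluster was in both libraries cluster 9, acinar-like cells of a median depth of 3434 UMIs, with 45279 and 49764 CPM, although in EL1 1 cell held 37.4% of those UMIs and the level without it was 33380 CPM.

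**Figure D3:**
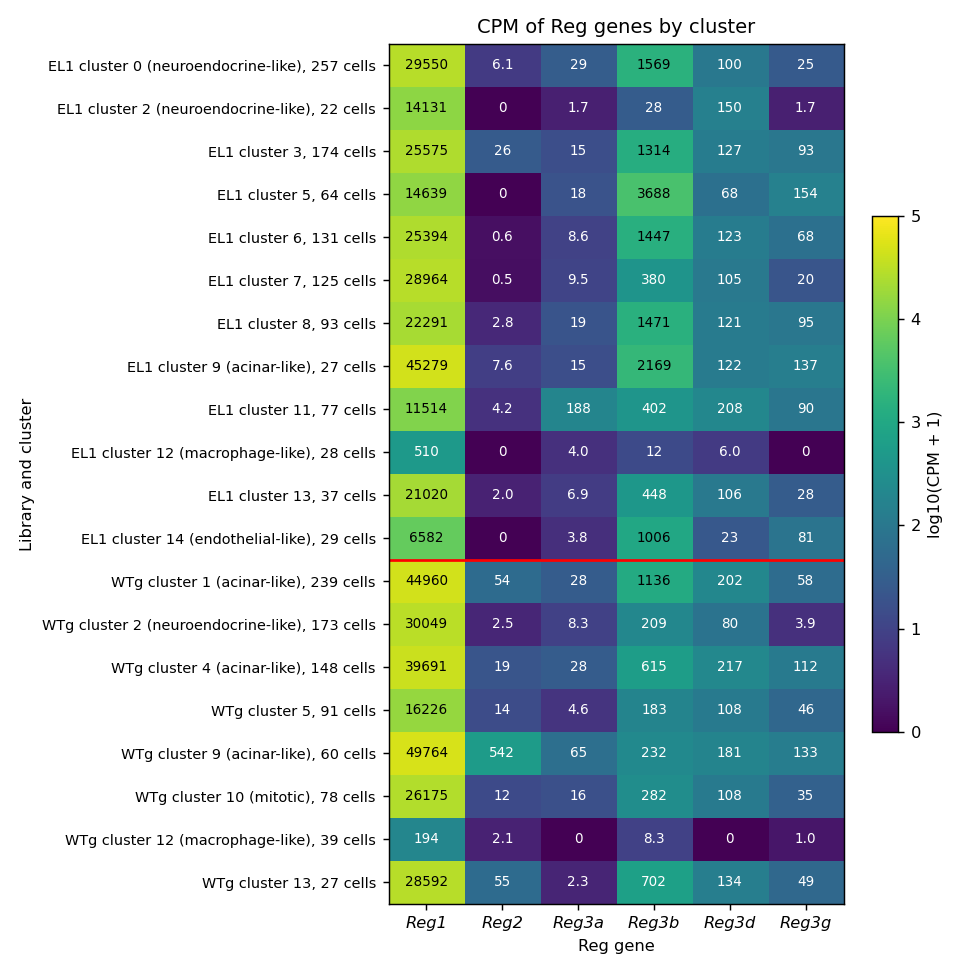
CPM of each Reg gene in each cluster with at least 20 cells, with EL1 clusters above the red line and WTg clusters below it, colored by log10(CPM + 1) and labelled with the CPM. Reg1 is at 6582 CPM or more everywhere except in the macrophage-like cells, Reg3a has its maximum of 188 CPM in EL1 cluster 11, and Reg3b is at 1569 CPM in EL1 cluster 0 but 209 CPM in WTg cluster 2, both neuroendocrine-like.

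Reg3b followed Reg1 in part over these groups. In EL1 it was 1569 CPM (1542 to 1596) in cluster 0, 1314 (1286 to 1342) in cluster 3, 1447 (1419 to 1477) in cluster 6 and 1471 (1440 to 1503) in cluster 8. It was 380 (360 to 400) in cluster 7 and 402 (381 to 424) in cluster 11, although Reg1 in cluster 7 was about as high as in cluster 0. In WTg it was 1136 CPM (1117 to 1156) in cluster 1 and 615 (596 to 635) in cluster 4, whereas the neuroendocrine-like cluster 2 had 209 (199 to 220) and the mitotic cluster 10 had 282 (266 to 298). Cells at or over 1000 CPM were 82 of 257 in EL1 cluster 0, 70 of 239 in WTg cluster 1 and 10 of 173 in WTg cluster 2. The EL1 maximum, 3688 CPM in cluster 5, came from cells of very low depth, of which 1 held 48.3% of the UMIs.

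Taken as a class, the neuroendocrine-like cells of the libraries differed more in Reg3b than in Reg1. Over 279 such cells in EL1, 257 of them in cluster 0, and 175 in WTg, 173 of them in cluster 2, Reg1 stood at 28514 and 29716 CPM. Reg3b stood at 1465 and 233 CPM, Reg3g at 23.5 and 4.02 CPM, and Reg3a at 27.2 and 8.19 CPM. At a depth of 2000 UMIs, 40.8% (35.0 to 46.8) of the EL1 cells and 13.7% (8.99 to 19.7) of the WTg cells had Reg3b. The class rests on different clusters in the libraries, so these values compare different kinds of neuroendocrine-like cell. Cluster 2 itself also held 22 EL1 cells, and there Reg3b was 27.5 CPM (16 UMIs) in EL1 and 209 CPM (1434 UMIs) in WTg, a log2 ratio of 2.93 (2.22 to 3.74). Reg1 was not close between the libraries within this cluster, at 14131 CPM in EL1 and 30049 CPM in WTg (log2 ratio 1.09, 1.06 to 1.12). Prss2 also lay apart within cluster 2, at 753 CPM for the EL1 cells against 6858 CPM for those of WTg. These cells thus differed in acinar transcripts as well, and whether acinar content or free acinar RNA enters their Reg3b gap was not tested. Cluster 13, led by the immediate early genes Fos, Klf2 and Socs3, held 37 EL1 and 27 WTg cells. Reg3b stood there at 448 and 702 CPM (log2 ratio 0.65, 0.47 to 0.83), whereas Prss2 was lower in WTg, at 22986 and 15688 CPM. In both tumor clusters that mixed the libraries at usual depth, then, Reg3b was higher in WTg, while over all kept cells it was lower. The shallow clusters 5 and 9, which also mixed the libraries, went the other way, at 3688 and 183 CPM in cluster 5 (log2 ratio -4.33) and at 2169 and 232 CPM in cluster 9 (-3.23), and they did so without the highest cell of each as well (2362 and 137 CPM, 627 and 159 CPM). The direction of Reg3b within shared clusters was thus not uniform. In cluster 13 of WTg, 1 cell held 43.0% of those UMIs, and the level without it was 425 CPM, beside 331 CPM in EL1 without its highest cell. Few EL1 cells fell in clusters named acinar-like, 36 of a median depth of 4886 UMIs against 447 of 38783 in WTg. Levels in this class are not set against each other. The name needs markers raised over the other cells, so it does not mean that EL1 lacked acinar transcripts. Prss2 was at 34832.5 CPM in EL1 cluster 3, which has no name, and at 17730 and 25863 CPM in WTg clusters 1 and 4. The 17 acinar enzyme genes described below took 15.6% of the UMIs in EL1 and 18.4% in WTg.

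**Figure D4:**
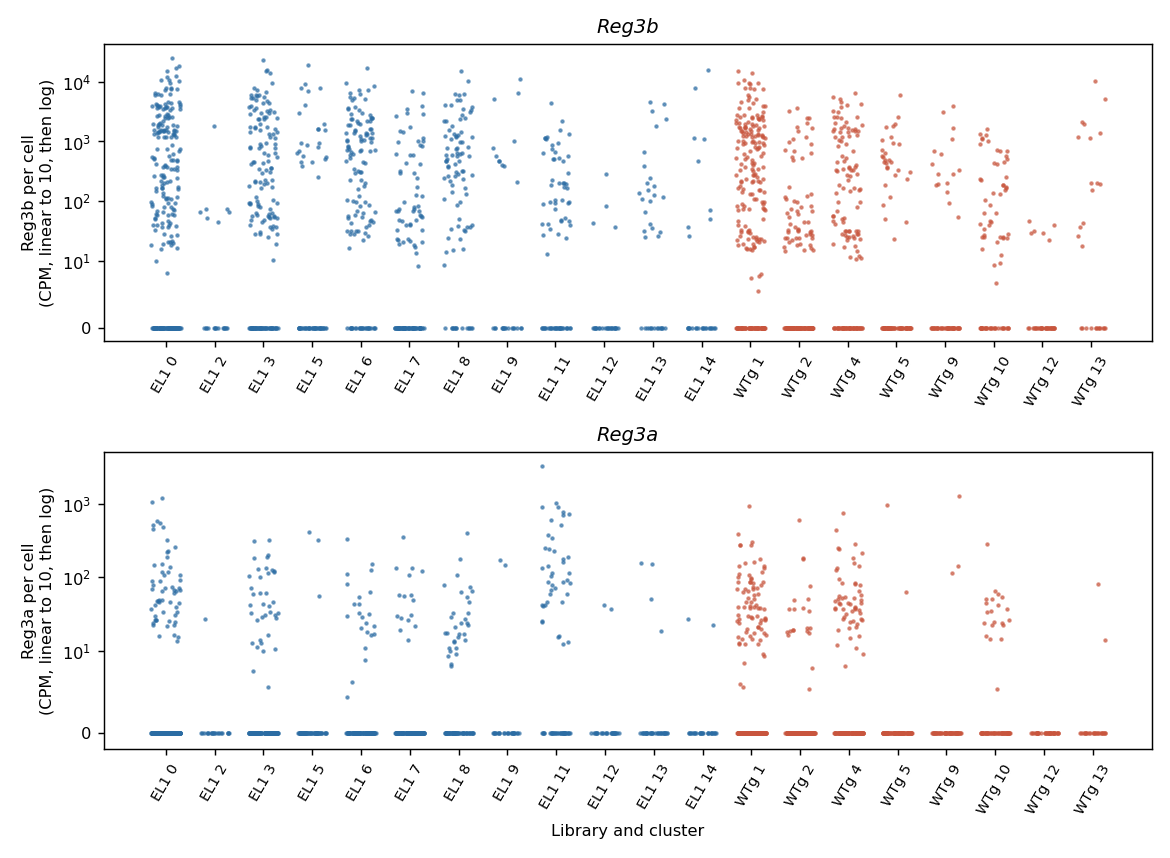
Reg3b (top) and Reg3a (bottom) in each cell, in CPM on an axis that is linear to 10 and logarithmic above, by library and cluster (blue EL1, orange-red WTg). Reg3b runs from 0 to over 10000 CPM within single clusters such as EL1 0 and WTg 1, and the cells with the most Reg3a gather in EL1 cluster 11, where the 90th percentile is 549 CPM.

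Reg3a, the mouse namesake of the human gut lectin gene, had its center elsewhere. EL1 cluster 11 was at 188 CPM (174 to 203) and held 632 of the 1195 Reg3a UMIs of EL1 in 77 cells. Its highest cell held 29.7% of them, and the level without that cell was 141 CPM, still well above the 29.0 CPM of cluster 0, the next of the EL1 clusters. No WTg cell fell in cluster 11. The WTg acinar-like clusters 1 and 4 had 27.6 and 27.8 CPM of Reg3a and the neuroendocrine-like cluster 2 had 8.32 CPM. Cluster 9 of WTg reached 65.0 CPM, of which 1 cell gave 82.6%. Reg3d was highest in EL1 in the same cluster 11, at 208 CPM (192 to 224), and in WTg in clusters 4 and 1, at 217 (205 to 229) and 202 CPM (194 to 211), with overlapping intervals. It varied little among EL1 clusters 0, 3, 6, 7, 8 and 13, from 100.2 CPM in cluster 0 to 127 CPM in cluster 3.

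Reg3g was low in the neuroendocrine-like clusters, at 25.0 CPM in EL1 cluster 0, 1.72 CPM (1 UMI) in EL1 cluster 2 and 3.94 CPM in WTg cluster 2. The level of EL1 cluster 0 was not particular to it, with 19.7 CPM in EL1 cluster 7 and 27.5 CPM in EL1 cluster 13. It was 93.04 CPM in EL1 cluster 3, 95.1 in cluster 8 and 89.6 in cluster 11, and in WTg 57.8 in cluster 1 and 111.8 in cluster 4. Within EL1 cluster 0, Reg3b and Reg3g therefore parted, since Reg3b was there at its highest among the EL1 tumor clusters of usual depth. Reg2 in WTg was 53.9 CPM (49.8 to 58.2) in cluster 1, which held 646 of the 1083 UMIs, 19.4 CPM in cluster 4 and 2.48 CPM in cluster 2. The 542 CPM of WTg cluster 9 came to 96.4% from 1 cell, without which the level was 20.3 CPM. In EL1 the highest Reg2 level was 25.9 CPM in cluster 3, of which 1 cell gave 68.3%, and 0 UMIs were seen in clusters 2, 5, 12 and 14.

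The members were next read against how acinar a cell was, without cluster borders. Cells of each library were ranked by the share of their UMIs from 17 acinar digestive enzyme genes, no Reg gene among them, and cut into 4 bins of equal cell number. Both the bins and the levels are parts of the same UMI total, and free acinar RNA enters both, so the values are descriptions. Borders were set within each library, and the second bin spans shares of 6.28 to 11.6% in EL1 and 8.12 to 16.2% in WTg. Immune, endothelial-like and erythroid-like cells stayed in the ranking. The lowest bin was also shallower, with a median of 16823 UMIs in EL1 and 13312 in WTg, beside 26460 and 38004 in the second. Its levels can thus reflect cell type and depth as well. In EL1 Reg1 stood at 11042, 24821, 28651 and 26484 CPM from the lowest to the highest bin, and in WTg at 10675, 33549, 39120 and 45429 CPM. The lowest bins of the libraries were thus close in Reg1, and the upper ones lay apart. Reg3d stood at 43.8, 143.6, 145.1 and 120.7 CPM in EL1 and at 25.0, 122.6, 183.1 and 216.5 CPM in WTg, so both were lower in the top bin than in the third in EL1, with intervals that did not overlap, and were highest in the top bin in WTg.

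Reg3b stood at 497, 1231, 1449 and 1367 CPM in EL1 and at 195, 590, 762 and 776 CPM in WTg. It was the lower in WTg in every bin, although bins of the same rank span different shares. Reg3g had its highest value in the top bin of both libraries, 84.3 and 100.1 CPM, against 13.4 and 13.8 CPM in the lowest bin. Reg3a went opposite ways. It stood at 27.5, 65.4, 26.9 and 12.0 CPM in EL1, with its lowest value in the top bin, while in WTg it was 5.39 CPM in the lowest and 25.4 CPM in the top bin. The log2 ratio of the top over the lowest bin was -1.20 (-1.53 to -0.87) in EL1 and 2.23 (1.64 to 2.89) in WTg. Reg2 reached 66.3 CPM in the top WTg bin against 21.0 CPM in the third, and in EL1 the lowest bin held 1 UMI of it.

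**Figure D5:**
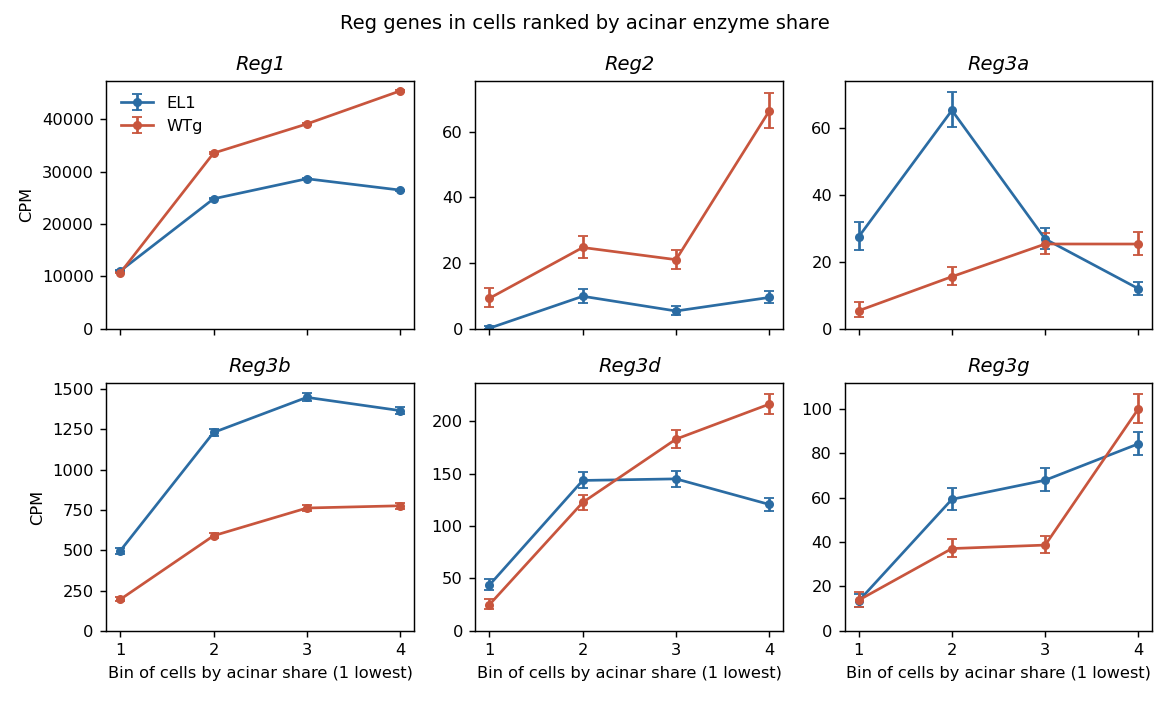
Level of each Reg gene (CPM, linear axes from 0, with exact Poisson 95% intervals) in bins of cells ranked by acinar enzyme share from lowest to highest within EL1 (blue) and WTg (orange-red). Reg1 and Reg3d are lower in the top bin than in the third in EL1 and highest in the top bin in WTg, Reg3b is lower in WTg in each bin, and Reg3a peaks at 65.4 CPM in the second EL1 bin.

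Within single cells the members were loosely linked. After thinning to 2000 UMIs, Pearson's r of log2(counts per 10000 + 1) over cells was 0.32 in both libraries for Reg1 and Reg3b, 0.24 in EL1 and 0.30 in WTg for Reg1 and Reg3d, and 0.18 and 0.24 for Reg3b and Reg3g. Cells of a library share free RNA, and thinned counts are sparse, so weak values carry little. Reg3b was seen in 60.4% of the 53 EL1 cells with Reg3g and in 59.0% of the 61 WTg cells with Reg3g, beside 36.7% and 27.8% of all cells. In WTg, Reg3b was also seen in 18 of the 24 cells with Reg2 and in 19 of the 24 cells with Reg3a.

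Over the 20 groups of library and cluster with at least 20 cells, the levels of Reg1 and Reg3d went together (Pearson's r of log2(CPM + 10) 0.91), as did those of Reg3b and Reg3g (0.81) and, less closely, those of Reg1 and Reg3b (0.69), while Reg2 and Reg3b did not (0.08). The groups include macrophage-like cells (Reg1 at 510 and 194 CPM, Reg3d at 6.02 and 0 CPM in EL1 and WTg) and EL1 endothelial-like cells (6582 and 22.5 CPM). A high r can therefore rest on the gap between these and the tumor groups, and r without them was not computed. Among 11046 other genes, those with the pattern most like Reg1 were Cpa1 (0.98), a carboxypeptidase gene of acinar cells, Phgdh (0.96), the first enzyme of serine synthesis, and Fxyd1 (0.96). Those most like Reg3d were Clps (0.95), which encodes the lipase cofactor colipase, Erp27 (0.94) and Gcat (0.94). Among those most like Reg3b were Gm2663 (0.88) and Syne4 (0.84). Those most like Reg3g were Pla2g1b (0.87), the pancreatic phospholipase, Tead2 (0.82) and Htra1 (0.81). Reg2 was nearest to Serpina16 (0.84), Gm5771 (0.78) and Try4 (0.77), and Reg3a to Gm11716 (0.84) and the glutathione transferase genes Mgst3 (0.83) and Gstk1 (0.80).

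Genes around the family in its biology were read as lists. Their 2-fold counts stand beside 4.22% of the 11052 genes with at least 200 UMIs higher in WTg and 2.96% lower. Of the acinar enzyme list, 17 of 18 genes were found, with a median log2 ratio of WTg over EL1 of 0.42 (13 higher, 4 lower) beside -0.14 over all 16167 genes with at least 10 UMIs, and 7 of the 17 were at least 2-fold higher in WTg. None of the 17 was at least 2-fold lower. Reg3b, Reg3a and, unless each cell was counted equally, Reg3g were lower in WTg over all cells and thus on the other side from most of these enzymes, and Reg1 and Reg3d on the same side. Among acinar transcription factors, which include the PTF1 subunit genes Ptf1a and Rbpjl, the median was 0.06 (6 higher, 3 lower), and 2 of 9 were at least 2-fold higher in WTg, Bhlha15 (1.06) and Gata6 (2.67), while Ptf1a had a log2 ratio of -0.75 (-0.86 to -0.64).

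Upstream of the Reg3 genes, the list of receptors and signal transducers for the interleukin 6, 22 and 17 families had a median log2 ratio of -0.13 (5 higher, 10 lower), and none of its 14 genes with at least 200 UMIs was past 2-fold. All genes had a median of -0.14 and 7.18% past 2-fold, so the list did not stand out from them. Stat3, the transcription factor of this route, stood at 195.9 and 201.0 CPM, and Socs3, its feedback inhibitor, at 116.4 and 74.6 CPM. Lifr stood at 87.2 and 47.5 CPM and Il11ra1 at 58.2 and 32.7 CPM. Of the 9 ligand genes, 6 had at least 10 UMIs, with a median log2 ratio of 0.80 (4 higher, 2 lower), and of the 3 with at least 200 UMIs, Il6 and Il1b were past 2-fold higher in WTg. Il1b had 231 UMIs in 18 EL1 cells and 457 in 27 WTg cells. Among them Il22, Il17a and Ifng had 0 UMIs in both libraries, a count that stands for 0.0790 (EL1) or 0.0909 (WTg) CPM when read as 3 counts. Il6 had 51 UMIs in 6 EL1 cells and 195 in 9 WTg cells, and Lif, the best detected ligand, stood at 81.3 and 79.8 CPM. Extl3, which encodes a proposed receptor of Reg proteins, stood at 35.7 and 33.8 CPM.

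Other genes of the acute phase and pancreatic injury response did not share 1 direction. The list had a median log2 ratio of -0.17 (7 higher, 7 lower), and of the 11 genes with at least 200 UMIs, Anxa1 was past 2-fold higher in WTg and Hp and Cp past 2-fold lower. Of the abundant genes of the list, Nupr1 and Spink1 were close between the libraries. Nupr1, a stress factor of the injured pancreas, stood at 2339 and 2390 CPM, and Spink1, the trypsin inhibitor, at 3686 and 3782 CPM. Clu was higher in WTg, at 2478 and 3206 CPM (log2 ratio 0.37, 0.36 to 0.38), and Atf3 lower, at 389 and 303 CPM (-0.36, -0.40 to -0.33). Saa3 had 122 UMIs in 26 EL1 cells and 6 in 6 WTg cells.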

How the data were processed

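Counts were deposited by the authors as one matrix of UMI counts per gene and barcode for each library, and the matrix header names Cell Ranger 6.0.2. The submitters' processing notes also name GRCm38, R 4.1 and Seurat 4.0.5. The counts were not normalized before deposit. A dense table of each library held the same counts for the barcodes with more than 200 and fewer than 10000 genes, and all 8826 (EL1) and 8076 (WTg) member values in it equalled those of the matrix. The members and the gene lists were chosen with earlier results of these data known.

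CPM is the UMIs of a gene scaled to 1000000 UMIs of the cells. Intervals are exact Poisson for levels, exact conditional binomial for ratios and Clopper-Pearson for shares, at 95%, and each library is 1 sample, so no test was run. A count of 0 was read as at most 3 counts. Kept cells were clustered by the Leiden method (scanpy 1.11.5, leidenalg 0.10.2, resolution 1, 2000 variable genes, 30 components, 15 neighbors) without the Reg genes, Mettl3, Plk1 and 97 cell cycle genes of Seurat 5.3.0. A cluster was named from at least 3 raised markers (log2 fold of at least 1, in at least 10% of cells), more than of any other class and at least 1 of them among the top 10 genes. These thresholds come from an earlier analysis, where they were set after clusters had been seen. Scrublet marked 4 doublets in EL1 and 4 in WTg, under 0.5% of cells, and they stayed in except in 1 alternative. Genes named were the 6 members, Mettl3, Reg4, the neighbors of the locus, the 3 genes most like each member (1 of them is not reported here) and genes of the lists. Other genes named among these lists were chosen after their values were seen. Log ratios and thinning were tested on simulated data. Alternatives covered the cell filter, TMM scaling (edgeR 4.0.16), the weighting of cells, the denominator, clustering, depth and the cut of the ranking. Sequences are from RefSeq, transcripts and gene spans from GENCODE M21, to which 32158 gene IDs matched.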

Additional observations from a re-analysis of the deposited data

Results flagged for a closer look

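The barcodes that the cell filter removed carried Reg transcripts. The summed level of the 6 genes was 11778 CPM in the 508 removed barcodes of EL1 and 11395 CPM in the 583 of WTg, compared with 25632 and 36238 CPM in kept cells. It was looked at because these barcodes enter no comparison above. Reg1 made up nearly all of it, with 13225 UMIs in EL1 at 10926 CPM, while Reg3b had 919 UMIs at 759 CPM. Among the EL1 groups read above for background, Reg1 was at 323 CPM in the immune cells and 12799 CPM in the erythroid-like barcodes. The Reg1 level of the removed EL1 barcodes lies between these, and how much of it is free RNA was not tested. The removed barcodes of EL1 held 1210387 UMIs, 393 of the 508 being over the mitochondrial limit.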

How the results depend on the processing

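The direction of Reg1, Reg2, Reg3a, Reg3b and Reg3d between the libraries was the same under all 8 alternatives, and that of Reg3g under 7 of 8. When each cell was counted equally, the log2 ratio (WTg over EL1) was 0.38 for Reg1, 2.87 for Reg2, -1.02 for Reg3b and 0.039 for Reg3g. TMM scaling raised every ratio by 0.11 and gave 0.66 for Reg1, -0.81 for Reg3b, 0.46 for Reg3d, -0.16 for Reg3g, 0.53 for the median of the acinar enzymes, -0.053 for that of the acute phase list and 0.17 for that of the acinar transcription factors. A denominator without acinar enzymes and Reg genes gave 0.62 for Reg1, -0.86 for Reg3b and 0.42 for Reg3d. Without the 10 highest cells of each library the ratio was 4.23 for Reg2, -0.45 for Reg3a and -1.13 for Reg3b, so Reg3b crossed the 2-fold line in 2 of 8 alternatives. The barcodes of the dense table gave 0.53 for Reg1 and -0.96 for Reg3b, the stricter filter gave 3.03 for Reg2, and removal of doublets gave 0.54 for Reg1 and -0.98 for Reg3b. Clusters 5 and 9 were left out in a setting chosen after seeing the data, and the ratios were 0.55 for Reg1, 1.96 for Reg2 and -0.88 for Reg3b. With genes of at least 1 UMI the acute phase median was 0.031. The cause of these shifts was not tested.

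The summed family's log2 of the highest over the lowest cluster was 6.49 in EL1 and 7.95 in WTg. It was 6.22 and 7.40 at resolution 0.5, 6.12 and 7.75 with Reg genes kept in the clustering, 7.73 in WTg with genes centered within the library, and 5.88 in EL1 without clusters 5 and 9. For the top over the lowest bin by acinar share it was 1.27 and 2.09, and it was 0.86 and 1.56 with 3 bins and 1.04 and 1.80 under the stricter filter. Of 162 other alternative values (members by cluster, by bin, by share and by pair), 159 had the main sign. A share of cells cannot be negative, and a highest over lowest cluster is above 0 by construction unless a 0 count was replaced. For those values the sign was therefore no check, and it could change freely only for the bins and pairs. With 1 library per group no library could be left out. No paired analysis was possible because each genotype has a single library and the labels carry no replicate number. At these depths 0 UMIs, read as 3 counts, stand for 0.0790 (EL1) or 0.0909 (WTg) CPM. The exact Poisson upper bound is higher, at 0.112 CPM in WTg.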
